A study of Pan troglodytes with 38 samples.

Results

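The 10 genes followed here mark macrophages of the heart, and were measured in RNA from post-mortem heart tissue of captive chimpanzees (Pan troglodytes). The genes were chosen by name as C1QA, C1QB, C1QC, CD163, MRC1, LYVE1, CSF1R, CD14, CD68 and FOLR2. All 10 of them were found among the 31373 genes of the annotated gene count table, and all 10 passed the filter on low counts in each test. The series has 38 chimpanzee libraries, 1 per animal, in a single group, since the labels name no treatment, genotype or disease. Some of the animals are relatives, so that the libraries are not fully independent. The study's sample table adds a technical split, in that RNA of 17 animals was extracted in 2016 in 4 batches and RNA of 21 animals in 2018 in 1 batch. The study combined libraries of earlier work, sequenced again, with new ones, and the origin of each library was not used here, so that extraction year and library history cannot be told apart. The same table notes infection with a hepatitis virus or exposure to HIV for 8 animals, all of them extracted in 2018. Age at death and post-mortem interval were not used either.

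Macrophages that reside in the heart take up dying cells and debris, sample their surroundings for microbial products and support neighbouring muscle cells. Much of the resident population is held in textbooks to be long-lived and to depend on signals through the receptor CSF1R, while other macrophages arise from blood monocytes that enter after injury. C1QA, C1QB and C1QC encode the 3 chains of C1q, the molecule that starts the classical complement pathway, and macrophages are a main source of all of them. CD163 takes up complexes of haemoglobin and haptoglobin, MRC1 is the mannose receptor, LYVE1 binds hyaluronan, FOLR2 is the folate receptor of macrophages, CD14 is a coreceptor for bacterial lipopolysaccharide and CD68 is a glycoprotein of lysosomes.

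The annotated gene counts of a library summed to between 43892814 and 132478050, with a median of 63639042, and 13 mitochondrially encoded genes took between 17.2% and 60.1% of them. Markers of heart muscle (9 genes, MYH7 and TTN among them) summed to at least 6593 CPM, counts scaled to a common library total, in every library. The median sum was 60400 CPM in the libraries extracted in 2018 and 58386 CPM in those of 2016. The lowest sum was far below these in 2018, at 6593 CPM, against 27020 CPM in 2016. The libraries 537 and Little_R, which stood apart in earlier work on these data, ranked 1 and 5 for mitochondrial share, and Little_R had the smallest total. In a bulk sample fewer macrophages and less RNA per macrophage cannot be told apart, and all levels below are for tissue as a whole.

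The macrophage genes were of low to moderate abundance in these hearts and differed widely between animals. Levels in CPM were scaled with the TMM method, which sets library sizes from the bulk of the genes. The median level of a gene over the 38 animals was between 2.52 CPM (FOLR2) and 16.9 CPM (C1QA). The highest animal exceeded the lowest by between 13.1-fold (CD68) and 101-fold (FOLR2). The lowest library held 18 reads of FOLR2, for which counting alone gives an error of 23.6%. For the other 9 genes the error at the lowest count was between 5.65% and 16.2%, so that counting error was small beside these folds.

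The 3 genes of C1q are neighbours on chromosome 1, in the order C1QA, C1QC and C1QB on the same strand. In the coordinates of Pan_tro_3.0, the exons counted in the table of orthologous exons spanned 21764847 to 21767947 for C1QA (4 exon pieces), 21771968 to 21776442 for C1QC (3 pieces) and 21781056 to 21789839 for C1QB (5 pieces), all on the + strand. C1QA (ENSPTRG00000000318) had a lowest level of 3.56 CPM in animal 554, a median of 16.9 CPM and a highest level of 118 CPM in animal 4x0430. C1QB (ENSPTRG00000043586) ranged from 2.35 CPM in 554_2 through a median of 11.4 CPM to 107 CPM in 4x0430. C1QC (ENSPTRG00000000319) ranged from 1.55 CPM in 554 through a median of 9.96 CPM to 92.6 CPM in 4x0430. In each of them 3 animals lay well above the rest. For C1QA these were 4x0430, 4x523 and 338 at 118, 115 and 107 CPM, and the fourth animal, 495, was at 53.4 CPM.

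CD163 (ENSPTRG00000004613) lies on the − strand of chromosome 12, with counted exons (17 pieces) between 7794903 and 7827991. Its level ranged from 1.22 CPM in 503 through a median of 7.34 CPM to 69.0 CPM in 338. MRC1 (ENSPTRG00000002336) lies on the + strand of chromosome 10, with counted exons (30 pieces) between 18627791 and 18729867, and ranged from 1.13 CPM in 554 through a median of 5.08 CPM to 28.8 CPM in 338. FOLR2 (ENSPTRG00000004030) ranged from 0.269 CPM in 554 through a median of 2.52 CPM to 27.2 CPM in 4x0430. The second highest animal for FOLR2 was 338 at 11.2 CPM, so that 4x0430 stood alone for this gene. FOLR2 has a close paralog, FOLR3, and STAR's gene counts leave out reads that map to more than 1 place.

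LYVE1 (ENSPTRG00000003359) had its own order of animals. It ranged from 0.745 CPM in 554_2 through a median of 6.43 CPM to 39.8 CPM in 495, an animal whose CSF1R and CD14 were near the middle at 4.27 and 9.996 CPM. Animal 4x523, which was among the 4 highest for the other 9 genes, had 6.59 CPM of LYVE1 and ranked 19. LYVE1 is also a marker of lymphatic endothelium, which is taken up further on.

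CSF1R (ENSPTRG00000017409), the receptor for the growth factors CSF1 and IL34 on which macrophages depend, ranged from 1.10 CPM in 4X0339 through a median of 4.64 CPM to 50.3 CPM in 4x0430. The next highest animal was 4x523 at 20.97 CPM. Animals 4x0043 and 570 had 1.12 and 1.94 CPM of CSF1R, ranks 37 and 34, although their C1QB ranked 20 and 13.

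CD14 (ENSPTRG00000028584) and CD68 (ENSPTRG00000008695) varied least by this fold. CD14 ranged from 2.03 CPM in 554 through a median of 9.28 CPM to 33.9 CPM in 338. CD68 ranged from 4.49 CPM in 503 through a median of 12.03 CPM to 58.7 CPM in 4x0430. The libraries 537 and Little_R ranked 3 and 5 for CD68, at 31.8 and 24.3 CPM, but 28 and 30 for MRC1, at 3.12 and 2.83 CPM. CD68 is also expressed in lysosomes of other cells, and CD14 is high in blood monocytes.

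Levels of different genes can be compared per length for the 5 genes whose identifiers in the table of orthologous exons are paired with a symbol. As CPM per kilobase of counted exon (RPKM), C1QA had a median of 23.5, C1QC of 13.9, C1QB of 13.2, CD163 of 2.92 and MRC1 of 1.70. C1QA was the highest of the 5 in 38 of 38 animals. C1QB and C1QC were close, and C1QC was the higher of the 2 in 27 animals. Every C1q gene was above CD163 and MRC1 in every animal, and CD163 was above MRC1 in 34 of 38. Counts on orthologous exons and annotated genes were nearly the same for 4 of these genes (median ratios between 1.01 and 1.03), but for CD163 the exons gave 1.33 times the annotated gene count.

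High levels tended to be found in the same animals. Animals 4x0430 and 338 were among the 4 highest for all 10 genes and 4x523 for 9. The 3 came from 3 different extraction batches of 2016. Animal 317 was the only other animal in the batch of 338. It had 11.3 CPM of C1QA against 107 CPM, 3.12 CPM of CD163 against 69.0 CPM and 3.43 CPM of MRC1 against 28.8 CPM. Differences between the batches of 2016 were not tested. At the other end, 554 was among the 4 lowest for 9 genes and 554_2 and 4X0339 for 6 each. These 3 belonged to the extraction of 2018. The names 554 and 554_2 are listed as different animals in the study's sample table.

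**Figure D1:**
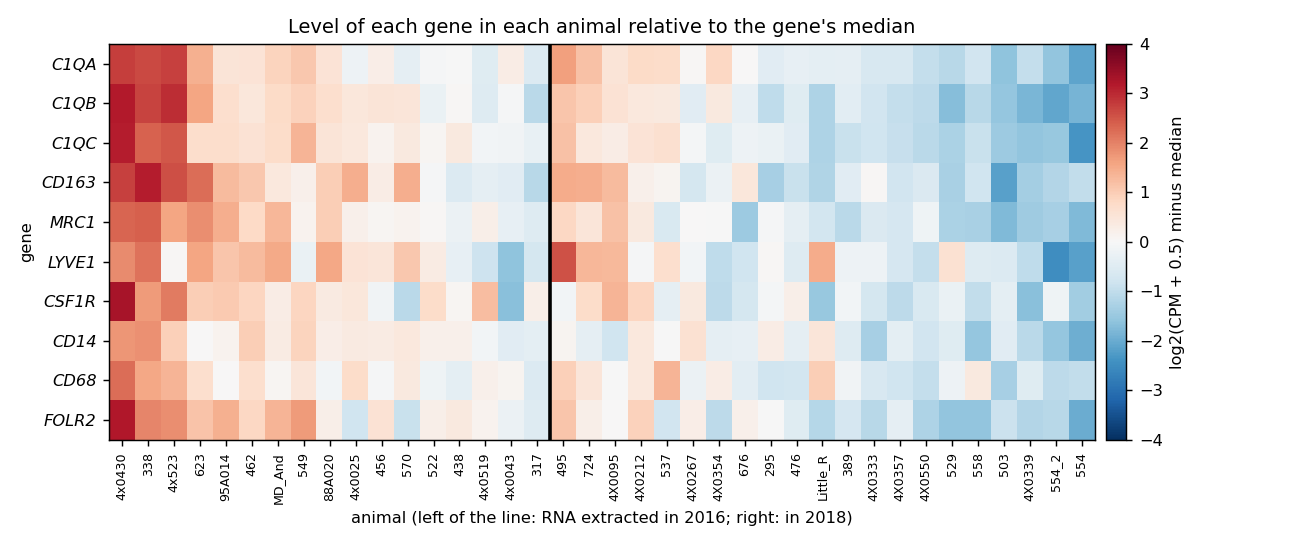
Level of each of the 10 macrophage genes (rows) in each of the 38 animals (columns), as log2(CPM + 0.5) minus the gene's median. Red is above and blue below the median, and animals are ordered within each extraction year by their mean over the 10 genes. Animals 4x0430, 338 and 4x523 are red for nearly every gene, with LYVE1 of 4x523 near the median, and 554 is blue throughout.

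The 10 genes rose and fell together from animal to animal. Correlations of log2(CPM + 0.5) were computed across animals for all 45 pairs. All 45 were positive and all 45 passed a permutation test with 100000 resamples at an adjusted p under 0.05, for Pearson's r and for Spearman's rho. Pearson's r was between 0.49 and 0.96 with a median of 0.75, and rho was between 0.44 and 0.94 with a median of 0.71. All genes of a library share its size factor, and the extraction years differ in level. With orthologous exon totals or DESeq2 size factors as library sizes, all 45 pairs also passed, with a median r of 0.77 and 0.75. These factors too are shared by all genes of a library. The same pairs were also taken within each year, which takes out the difference between years but not the shared size factor. Among the 21 animals of 2018 the median r was 0.64 and 39 pairs passed. Among the 17 animals of 2016 it was 0.79 and 43 pairs passed.

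The chains of C1q were the most tightly coupled. C1QA and C1QB had r = 0.96 (rho = 0.93, adjusted p = 1.41e-05 by permutation, the smallest the resamples allow for r), and r was 0.94 without 4x0430 and 4x523, the animals farthest from the median of C1QA. The pair had r = 0.96 within both years. C1QB and C1QC had r = 0.95, and C1QA and C1QC had r = 0.93. CD163 followed C1QB with r = 0.92, and FOLR2 followed C1QC with r = 0.90. MRC1 had r between 0.66 with CD68 and 0.89 with C1QB.

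Over all animals LYVE1 and CSF1R were the members coupled least to the others. The lowest of the 45 correlations was between these 2 genes, with r = 0.49 (rho = 0.51, adjusted p = 0.00167 by permutation), and it was 0.56 without 495 and 554_2. The mean r of LYVE1 with the other 9 genes was 0.63, against 0.84 for C1QC. Within 2018 it was 0.60, above CSF1R (0.48), CD14 (0.49) and CD68 (0.51), and within 2016 it was 0.58, the lowest of the 10. CSF1R and CD68 had r = 0.53 (adjusted p = 0.000655 by permutation), which dropped to 0.32 without 4x0430 and 4x523. Within 2018 this pair had r = 0.12 (adjusted p = 0.612 by permutation), so the relation did not hold within that year. CD163 and CD14 had r = 0.16 in 2018 (adjusted p = 0.513 by permutation) and r = 0.74 in 2016. Whether r differed between the years was not tested.

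**Figure D2:**
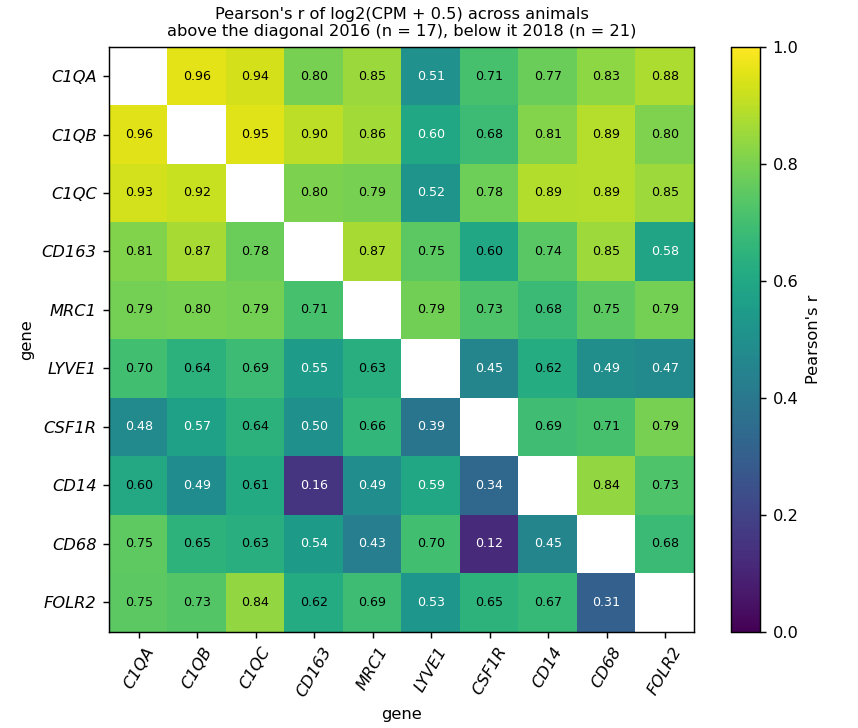
Pearson's r between each pair of the 10 genes across animals, on log2(CPM + 0.5). Cells above the diagonal are for the 17 animals of 2016 and cells below it for the 21 animals of 2018. The block of C1QA, C1QB and C1QC lies between 0.92 and 0.96 in both parts, and the lowest cell is CSF1R with CD68 in 2018, at 0.12.

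The genes outside the 10 with the most similar pattern were named by their mean r with the 10 genes across the 38 animals. Among 11341 genes with a symbol and at least 6 CPM in at least 1 animal, the first was F13A1 (mean r = 0.81), the A chain of coagulation factor XIII, which macrophages carry. It was followed by C3AR1 (0.78), the receptor for the complement fragment C3a, VSIG4 (0.77), a complement receptor, MSR1 (0.77), a scavenger receptor, and MS4A4A (0.76). FOLR3 (0.76), CR1 (0.75), MS4A6A (0.73), SPI1 (0.72) and TYROBP (0.70) completed the 10. F13A1 kept a mean r of 0.72 in 2018 and 0.79 in 2016. The median of this mean over all ranked genes was 0.01, and 63 genes exceeded 0.5. F13A1 correlated most with MRC1 (r = 0.90), VSIG4 with CD163 (r = 0.93) and C3AR1 with CSF1R (r = 0.89), and for 8 of the 10 genes the lowest r was with LYVE1.

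Lists of other cells give the setting for these values. Of 17 other macrophage genes that could be ranked, the median mean r was 0.65, from 0.26 for STAB1 to 0.81 for F13A1. It was 0.34 over 7 monocyte and neutrophil genes, of which FPR1 was highest at 0.61. It was 0.27 over 9 partners of the members, such as TLR4 at 0.41, and 0.18 over 6 genes of blood endothelium. It was 0.12 for fibroblasts, 0.08 for T and NK cells, 0.07 for lymphatic endothelium, −0.05 for B and plasma cells, −0.09 for both adipocytes and cardiomyocytes, and −0.21 for erythrocytes.

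The spread of these genes between animals was larger than that of most genes of like level. Dispersion, a measure taken from the study, is the residual of the natural logarithm of a gene's negative binomial overdispersion from its trend on mean level, so that 0 is usual for a gene of that level. The inputs differ from the study's, which used orthologous exon counts with totals and lengths as offsets, in that annotated gene counts with TMM library sizes were fitted. It was above 0 for 10 of 10 macrophage genes, with a median of 1.59. Over 11752 genes the median was −0.113 and 45.1% were above 0. C1QB had 2.15 ± 0.29 (SE over 1000 draws of the animals with replacement), CD163 2.05 ± 0.24, C1QA 1.95 ± 0.25 and C1QC 1.91 ± 0.33. LYVE1 followed with 1.69 ± 0.20, then CSF1R with 1.49 ± 0.41, MRC1 with 1.43 ± 0.26 and FOLR2 with 1.23 ± 0.36. CD68, at 1.16 ± 0.27, and CD14, at 1.03 ± 0.28, were lowest, and 90.02% and 87.7% of all genes had a lower dispersion than these. Neighbours in this order differed by less than the larger of their SEs.

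Leaving out each animal in turn gave a median between 1.44 and 1.61. CSF1R depended most on a single library, with 0.99 in place of 1.49 without 4x0430, and FOLR2 dropped to 0.85 without it. The median was 2.19 among the animals of 2016 and 0.90 among those of 2018 (9 genes, as FOLR2 did not reach 6 CPM), a difference that was not tested. CD14 (0.32), CSF1R (0.34) and MRC1 (0.43) were lowest in 2018, while C1QA remained at 1.38.

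**Figure D3:**
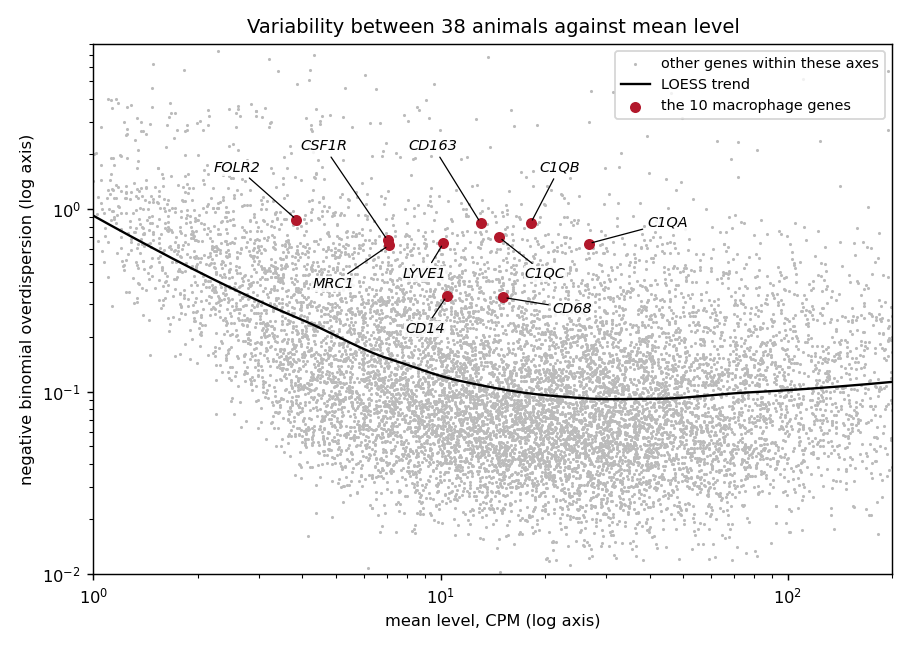
Negative binomial overdispersion against mean level in CPM for the 10 macrophage genes (red) and the other genes within these axes (grey), both on log axes, with the LOESS trend (line). All 10 lie above the trend, with CD14 and CD68 nearest to it.

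The animals of 2018 had lower levels of most macrophage genes than those of 2016. Mitochondrial share moved with the year as well, at 21.5% to 60.1% (median 32.7%) in 2018 and 17.2% to 34.98% (median 28.7%) in 2016, and the 9 highest shares were all in 2018. Medians in 2018 and 2016 were 12.8 and 24.4 CPM for C1QA, 6.49 and 16.5 CPM for C1QB, and 5.496 and 14.5 CPM for C1QC. They were 4.27 and 15.1 CPM for CD163, 3.12 and 6.09 CPM for MRC1, and 1.28 and 4.02 CPM for FOLR2. They were 3.48 and 7.97 CPM for CSF1R and 6.92 and 11.8 CPM for CD14. They were 5.49 and 9.66 CPM for LYVE1 and 10.2 and 14.04 CPM for CD68.

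The ranges of the years overlapped for every gene. For C1QC no animal of 2016 was below the median of 2018, whose range ran from 1.55 to 22.8 CPM against 7.95 to 92.6 CPM in 2016, and 13 of 21 animals of 2018 were below the lowest of 2016. The same held for MRC1, where 12 of 21 animals of 2018, at 1.13 to 11.996 CPM in all, were below the lowest of 2016, at 3.43 to 28.8 CPM. C1QC and MRC1 had the most animals of 2018 below the lowest of 2016. Such animals numbered 10 for CD14, 9 for C1QA and for FOLR2, 8 for CD68 and 7 for C1QB. They numbered 6 for CD163, 2 for LYVE1 and 1 for CSF1R. These counts were not made over all genes. For LYVE1 the highest animal of all belonged to 2018.

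**Figure D4:**
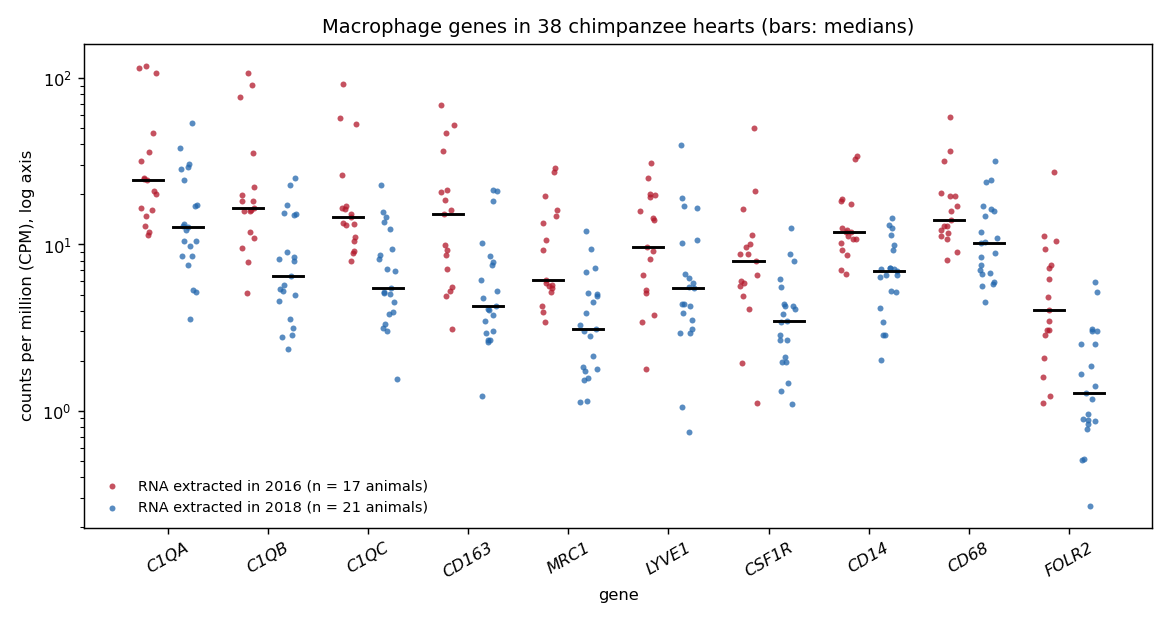
Level of the 10 genes in each animal in CPM on a log axis, for RNA extracted in 2016 (red, 17 animals) and 2018 (blue, 21 animals), with a bar at each median. Every median is lower in 2018 and the points of the years overlap for every gene.

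Tested with edgeR's quasi-likelihood test with sex as a covariate, 8 of the 10 genes were lower in 2018 at an adjusted p under 0.05 (Benjamini-Hochberg over 15889 genes) and 0 were higher. Of all genes tested 15.4% passed, with 3.34% lower and 12.1% higher. This split was not stable, since the share that was lower ran from 2.72% to 6.39% (431 to 1011 genes) and the number that was higher from 1419 to 2069 genes when each animal was left out in turn, and 17 of the 38 such fits called over 1.5 times as many lower genes as all animals did. The median log2 change of the 10 was −1.41, against 0.01 for all genes. FOLR2 changed by −1.75 ± 0.38 (SE, adjusted p = 0.00115), C1QB by −1.69 ± 0.37 (adjusted p = 0.00127) and C1QC by −1.58 ± 0.33 (adjusted p = 0.000769). CD163 changed by −1.57 ± 0.38, MRC1 by −1.45 ± 0.32, CSF1R by −1.37 ± 0.34, C1QA by −1.18 ± 0.35 and CD14 by −0.98 ± 0.23, with adjusted p between 0.00127 and 0.0166. CD68, at −0.64 ± 0.26 (adjusted p = 0.0836), and LYVE1, at −0.60 ± 0.39 (adjusted p = 0.310), did not pass. On orthologous exon counts, an alternative chosen after seeing the data, 1274 of 16916 genes were lower and 2106 higher, and all 5 paired members were lower, with log2 changes between −1.80 and −1.28.

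The 8 calls held without each animal in turn. CD68 lay close to the threshold. It passed in 8 of the 38 fits that left out 1 animal, in limma-voom (−0.72), and without 537 and Little_R (−0.85). Among the 21 animals from the Yerkes center (12 of 2018 and 9 of 2016), CD14 alone passed, at −1.31 (adjusted p = 0.0401). All 10 changes stayed negative there with a median of −1.31, and 273 genes passed in all, 32 lower and 241 higher. Another fit left out the 8 animals noted as infected or exposed (30 animals, 13 of 2018), an alternative chosen after seeing the data. There 7 of the 10 genes remained lower, with a median of −1.53 over the 10. Of 15788 genes tested in that fit 1933 were called, 256 lower and 1677 higher. C1QA missed the threshold (−1.22 ± 0.43, adjusted p = 0.0627). Without the 5 libraries of highest mitochondrial share, likewise chosen after seeing the data, C1QA no longer passed (−1.07, adjusted p = 0.0729) and CD68 did (−0.89, adjusted p = 0.0263).

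Some other macrophage genes, from a second list, were also lower in 2018. Of 23 tested, 10 were lower and 0 higher, with a median log2 change of −0.76, and 13 did not pass. Of all genes tested 3.34% were lower. DESeq2 called 12 genes of this list and limma-voom 8. MARCO, a scavenger receptor, changed by −2.999 ± 0.71, FCGR2A, a receptor for immunoglobulin G, by −1.64 ± 0.35, VSIG4 by −1.51 ± 0.41 and F13A1 by −1.48 ± 0.37. MARCO and FCGR2A were near the floor, with medians of 0.391 and 0.626 CPM, and 2 animals had 0 counts of MARCO. The transcription factor SPI1 (−0.76 ± 0.25), on which macrophage identity depends, was among the 10 as well. STAB1 (0.65 ± 0.32) and SIGLEC1 (−0.04 ± 0.38) did not pass. VSIG4, F13A1 and SPI1 were also among the genes most similar to the members across animals, so that their changes are not independent of those of the members.

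None of the 11 ligands, cofactors and binding partners that were tested passed in edgeR, whereas 2 had an unadjusted p under 0.05 and DESeq2 and limma-voom called 1 each. CSF1, a ligand of CSF1R, changed by 0.79 ± 0.32 (adjusted p = 0.0846), IL34, its other ligand, by 0.47 ± 0.29, and TLR4, the receptor that CD14 serves, by −0.34 ± 0.26. The proteases C1R and C1S, which join C1q in the first complement complex, changed by 0.12 ± 0.35 and 0.19 ± 0.29 and were more abundant than any C1q gene, with medians of 118 and 132 CPM (not per length).

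Markers of other cells were set beside this change. Of the monocyte and neutrophil genes, 2 of 9 were lower (FPR1, a receptor for bacterial peptides, by −1.38 ± 0.41), against 3.34% of all genes. Their summed level ran from 9.18 to 226 CPM in 2018 and from 33.7 to 405 CPM in 2016. Of the adipocyte genes, 3 of 4 tested were higher (PLIN1 by 2.95 ± 0.96, CIDEC by 2.72 ± 0.87 and FABP4 by 0.82 ± 0.24), against 12.1% of all genes, but DESeq2 and limma-voom called 1 each. PLIN1 and CIDEC were near the floor, with medians of 0.349 and 0.258 CPM. Both were highest in 4X0267, a library of 2018, at 103 and 56.4 CPM. The sums of the adipocyte genes ran from 101 to 813 CPM in 2018 and from 62.4 to 525 CPM in 2016. FABP4, which endothelium of capillaries also expresses, had a median of 182 CPM, against at most 0.349 CPM for the others listed. In 4X0267, however, ADIPOQ also reached 99.1 CPM. FLT4 of lymphatic endothelium (1.40 ± 0.34) and EGFL7 of blood endothelium (1.51 ± 0.32) were higher, as 1 of 6 genes in either list, a share near the 12.1% of all genes called higher, and limma-voom called 0 of the lymphatic list. No gene passed in edgeR among 8 of T and NK cells, 5 of B and plasma cells, 6 of fibroblasts, 9 of cardiomyocytes and 3 of erythrocytes, where 0, 1, 0, 0 and 0 had an unadjusted p under 0.05, DESeq2 called 1 (erythrocytes) and limma-voom 0. The part of these cells in the change of the macrophage genes was not tested.

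**Figure D5:**
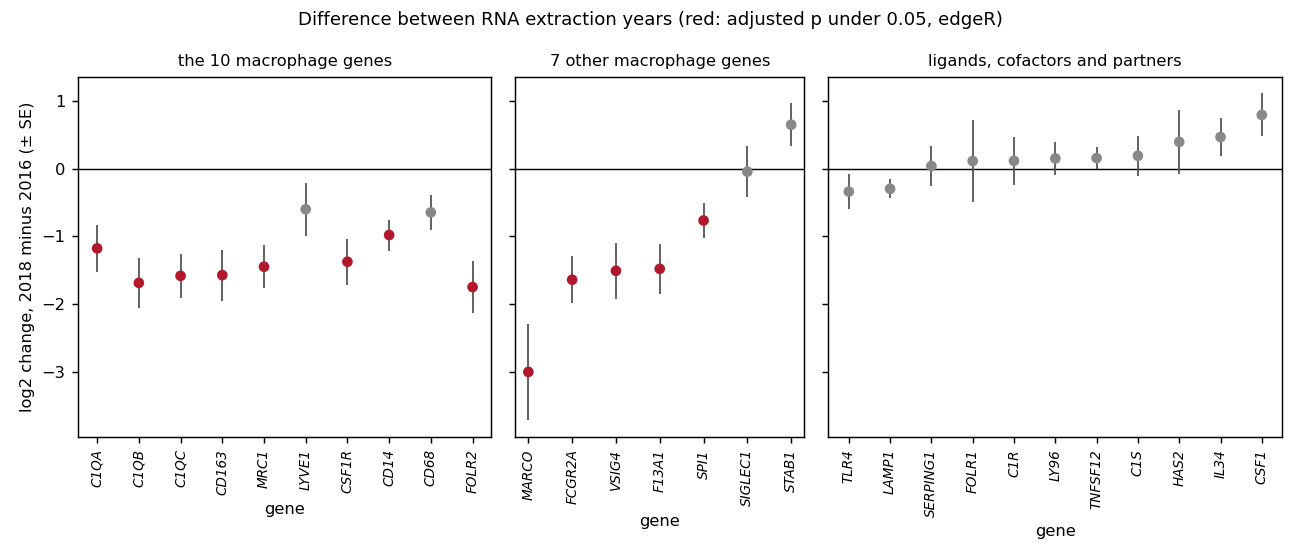
Log2 change between extraction years (2018 minus 2016, points) with its standard error (bars) for the 10 macrophage genes, the 7 other macrophage genes whose change is given in the text, and ligands, cofactors and partners. Red marks an adjusted p under 0.05 in edgeR, with 8 of 10, 5 of 7 and 0 of 11 genes red. The 7 were picked from a list of 23 tested, of which 10 passed.

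Within C1q the ratio of C1QA to its neighbours also differed between the years. The ratio of counts of 2 genes in a library does not depend on library size. The C1QA count was between 0.804 (570) and 2.96 (4X0339) times that of C1QB. The median ratio was 1.89 in 2018, with a range of 1.27 to 2.96, and 1.39 in 2016, with a range of 0.804 to 2.21. The mean log2 ratio was 0.92 ± 0.31 (SD, n = 21) in 2018 and 0.47 ± 0.35 (SD, n = 17) in 2016, a difference of 0.45 (adjusted p = 0.00069 over 3 ratios, two-sided permutation test). C1QA over C1QC differed likewise, with medians of 1.97 and 1.54 (difference 0.43 on the log2 scale, adjusted p = 0.00177 by permutation). C1QB over C1QC did not pass, at −0.02 (adjusted p = 0.897 by permutation). Among the Yerkes animals alone both differences missed the threshold, at 0.37 (adjusted p = 0.0576 by permutation) and 0.33 (adjusted p = 0.0714 by permutation). The ratios to C1QB and C1QC did not pass with RNA integrity over all animals (r = −0.28 and −0.32, both adjusted p = 0.143 by permutation), but did without 537 and Little_R (r = −0.39 and −0.42, both adjusted p = 0.0265 by permutation, rho = −0.34 and −0.35). In the animals that remained, r was −0.47 and −0.43 in 2018 and −0.05 and −0.22 in 2016, and −0.36 and −0.39 over both years without the 2 animals farthest from the median. The part of RNA integrity in the difference between the years was not tested. The ratios were examined after the levels had been seen.

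No association of RNA integrity with the level of any of the 10 genes passed. In edgeR with sex and year as covariates, 0 of the 10 passed, as did 0% of 16581 genes, of which 2207 had an unadjusted p under 0.05. None of the 10 had an unadjusted p under 0.05, and DESeq2 and limma-voom called 0 of the 10 (175 and 0 of all genes). The log2 change per unit of the RNA integrity number was between −0.22 ± 0.13 (SE, FOLR2) and 0.10 ± 0.12 (CSF1R). A term for a different slope in each year called 0 of the 10 as well, and 0% of 17031 genes (1071 with an unadjusted p under 0.05, and 13 by DESeq2 and 0 by limma-voom). None of the 10 had an unadjusted p under 0.05 there. All 10 slopes were lower in 2018 than in 2016, with differences between −0.46 ± 0.38 (CD163) and −0.08 ± 0.24 (CD68).

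The share of mitochondrial transcripts was compared with each gene. Across 38 animals only CSF1R passed (r = −0.50, adjusted p = 0.0176 over 10 genes by permutation, and rho = −0.43, adjusted p = 0.0791 by permutation). It stayed at −0.50 without 537 and 558, the animals farthest from the median, and it did not pass within 2018 (r = −0.42) or 2016 (r = −0.37). CD68 had r = 0.57 in 2018 and −0.51 in 2016, neither of which passed.

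Sums of marker genes of other cells were compared with the 10 genes after these values had been seen. FLT4 had the highest median of the lymphatic markers (9.996 CPM) and reached 135 CPM in Little_R. The sum was not repeated without FLT4. The summed lymphatic markers did not correlate with LYVE1 over all animals (r = 0.11, adjusted p = 0.630 by permutation), and r was −0.03 without Little_R and 529, the animals farthest from the median. In 2018 r was 0.53 (adjusted p = 0.0640 by permutation) and in 2016 it was −0.66 (adjusted p = 0.0417 by permutation), so that no one relation held in both years. CD68 correlated with the summed lymphatic markers in 2018 (r = 0.69, adjusted p = 0.005 by permutation) and not in 2016 (r = −0.21) or over all animals (r = 0.27). The value for 2018 was not repeated without 537 and Little_R. Those libraries were high for CD68, and highest for PDPN and FLT4 respectively.

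Summed monocyte and neutrophil markers correlated with 7 of the 10 genes over all animals. The share of all genes that would pass was not computed. The 10 genes also correlate with each other, so the counts of genes given here are not counts of separate results. CD68 led with r = 0.69 (rho = 0.71) and kept r = 0.61 without 338 and 503, the animals farthest from the median. Within each year CD68 alone passed, with r = 0.67 in 2018 and 0.66 in 2016, and the other 6 passed in neither year. The highest median in the list was that of VCAN (26.5 CPM), a gene of the extracellular matrix that was highest in 537. Without VCAN, a measure added after seeing the data, all 10 genes passed over all animals by r and 7 by rho, 7 passed in 2016 and 0 in 2018, and CD68 had r = 0.63 (0.54 in 2018, adjusted p = 0.127 by permutation, and 0.67 in 2016). With VCAN included FOLR2 had the lowest value, r = 0.23 (adjusted p = 0.158 by permutation), and CSF1R and CD14 did not pass either, at 0.28 and 0.32.

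Summed adipocyte markers correlated with 0 of the 10 genes past the threshold over all animals, with r between −0.44 (CSF1R) and −0.05 (C1QA). Within 2018 C1QA alone passed, with r = 0.59 (adjusted p = 0.0477 by permutation), against −0.11 in 2016. Since FABP4 made up nearly all of this sum, it was repeated without that gene, where 0 of the 10 passed over all animals or in either year, with r between −0.12 and 0.04 over all animals.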

How the data were processed

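PolyA RNA of 38 chimpanzee hearts (TruSeq v2) was measured. The labels name Trizol extraction, the study's methods kits or Trizol, without saying which sample had which. The deposited counts are raw. Per the labels the authors aligned with STAR 2.6.1b, and per their methods the gene count table is STAR's count per gene of Ensembl's Pan_tro_3.0 annotation. The second table holds the deposited count per orthologous exon set from featureCounts. The strand setting is not given in the sources used here, so overlapping antisense genes cannot be separated. Extraction date, RNA integrity, sex, center and notes on infection come from the study's sample table. The authors' normalized matrix and 52 columns that match no sample of the series were not used, and the comparison with human hearts was not analysed here.

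Symbols came from a supplied table (18040 of 31373 identifiers). Sequences were not analysed here. Tests used edgeR 4.0.16 (TMM, filterByExpr, quasi-likelihood), with DESeq2 1.42.0 and limma 3.58.1 (voom) as alternatives, and Benjamini-Hochberg adjustment over all genes tested. Correlations and ratios used 100000 permutations (numpy 2.4.6, scipy 1.17.1). Levels entered as log2(CPM + 0.5), mitochondrial share as a percentage, and ratios as log2 of the ratio of raw counts. The LOESS trend had degree 1 and span 0.75. RPKM used the lengths of orthologous exons. The tests were first tried on simulated data.

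The genes named are the 10 members, the genes of the lists, and the 10 other genes with the highest mean correlation. Some genes of the lists are counted but not reported here by name. Members and lists were chosen with earlier results of these data known. Replicates are animals, and p-values measure the spread between them. Alternatives were other library sizes, no filter on low counts, another tool, subsets of animals, RNA integrity as a covariate, a span of 0.3 and leaving out each animal.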

Additional observations from a re-analysis of the deposited data

How the results depend on the processing

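The 8 members lower in 2018 numbered 8 or 9 under the other tools, library sizes, filter and covariate, and without each animal (8 to 9), and 7 without the animals noted as infected or exposed, but 1 passed among Yerkes animals alone, where fewer animals were tested. Genes past the threshold for the year, 2447, became 3949 with DESeq2, 3727 without the filter on low counts, 273 in Yerkes animals and 1469 without the 5 libraries of highest mitochondrial share (2072 to 2799 without each animal). For RNA integrity, 0 genes became 175 with DESeq2, 2 without the filter, 2 with orthologous exon totals as library sizes, 7 in 2016 alone and 0 to 4 without each animal. For its difference between the years, 0 became 13 with DESeq2 and 11 without the filter. No member was among the genes called for RNA integrity or its difference between years. The causes of these changes were not tested. Slopes on RNA integrity, none of which passed, changed sign in 2016 alone for C1QA (0.0894), C1QB (0.112), C1QC (0.0693), CD163 (0.402) and CD14 (0.141), with limma-voom for CD163 (0.00635), and without 537 and Little_R for LYVE1 (−0.0467) and CD68 (−0.0561). Without each animal they ran from −0.107 to 0.0177 (C1QC), −0.146 to 0.0484 (CD163), −0.0553 to 0.109 (MRC1), −0.0354 to 0.179 (LYVE1), −0.0122 to 0.140 (CSF1R), −0.0637 to 0.0107 (CD14) and −0.00647 to 0.0939 (CD68).

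The correlation with mitochondrial share changed sign in 2018 alone for C1QA (0.146), C1QC (0.0513) and CD14 (0.132), without 537 and Little_R for LYVE1 (−0.0315) and CD68 (−0.175), and in 2016 alone for CD68 (−0.508). The 1 gene that passed there became 0 with orthologous exon totals, in 2018 and in 2016. The median of C1QA, 16.9 CPM, became 29.9 CPM when counted and scaled on orthologous exons. With DESeq2 the median log2 change of all genes for the year was 0.14, and that of the 10 was −1.42. The median dispersion, 1.59, became 2.19 in 2016 and 0.90 in 2018. The ratios of C1QA to C1QB and C1QC no longer passed in Yerkes animals (0.37 and 0.33). Of the 10 most similar genes, 10, 9 and 9 were shared with orthologous exon totals, in 2018, and without 537 and Little_R, and 6 in 2016. No paired analysis was possible because the samples form 1 group. Depth limits FOLR2 most, with 18 reads in the lowest library.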
